A study of Homo sapiens with 21 samples.

Results

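The NRF2 and oxidative stress genes were followed through a transfection time course in HEY, an established line of human ovarian carcinoma cells. The group held 37 listed genes. Of these, 35 had a probe set with a single gene symbol (AKR1B1 and FTH1 had none), and 33 were bright enough to be tested, among 12879 genes tested in the series. The list was proposed with results of these arrays known, among them the fall of HMOX1, and the probe set of each gene was chosen by its brightness over all 21 arrays. The counts below are therefore descriptions of the listed genes, and the tests come from a fit across all 12879 genes.

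Each of the 7 groups held 3 arrays. They were HEY cells before any transfection (0 h), cells at 24, 48 and 144 h after lipid transfection with a control miRNA, and cells at the same times after transfection with mir-429. The control arm's agent is a synthetic mirna in the labels, read here as the design's negative control. The titles of both transfected arms begin with nc, which the labels do not explain, so the arms were told apart by the named agent. All arrays came from the same line, and untransfected cells were taken at 0 h only. Replicates are called biological without saying how cultures were kept apart, so a p-value measures only the spread among these samples. A change against 0 h thus holds the transfection, the agent and the time in culture together.

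NRF2, encoded by NFE2L2, is the transcription factor that drives the antioxidant and detoxification program. KEAP1 holds it in the cytoplasm and delivers it to the proteasome, and oxidants or electrophiles that modify KEAP1 let NRF2 accumulate, pair with small MAF proteins and bind antioxidant response elements. BACH1 competes with NRF2 for those elements and represses HMOX1 strongly, until heme removes it. In many carcinomas the program is active and supplies glutathione, thioredoxin, NADPH and drug-metabolising enzymes.

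The transfected miRNA belongs to the miR-200 family. Its mature sequence is shown with 2 relatives that carry the same seed (bases 2 to 8, in capitals), the stretch that pairs with target mRNAs. The sequences are from RefSeq, GRCh38.p14, and hsa-miR-429 lies on the plus strand at chr1:1169055-1169076.
hsa-miR-429: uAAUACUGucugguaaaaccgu
hsa-miR-200b-3p: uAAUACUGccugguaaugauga
hsa-miR-200c-3p: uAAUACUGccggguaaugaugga

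The core of the antioxidant response element, TGACNNNGC, was searched on both strands in RefSeq promoter windows of 300 bases, from 250 before to 50 after each gene start. It was present in 11 of 44 windows of the members (25%) and in 13.3% of 35116 windows of all genes. Counted by gene, 10 of 31 members with a window held it (32.3%), against 16.1% of 27305 genes. Of the 14 matches, 2 also held TGANTCA, the AP-1 element, which can overlap this core. A match describes the letters of the window and is no evidence of binding. The 250 bases before the gene start are printed for 3 enzymes of the program, picked for a match and a rise in both arms at 24 h. The match is in capitals. Match and rise did not always go together. The windows of AKR1C1, AKR1C2, OSGIN1, SQSTM1 and SRXN1, which rose more at 24 h, held no match, and HMOX1 had no window. PGD and MAFF held a match and were not called against 0 h at 24 h, while KEAP1, EPHX1 and PIR held a match and rose in both arms. GCLM is read from the minus strand of chr1:93909431-93909680, ME1 from the minus strand of chr6:83431052-83431301 and a window of TXNRD1 from the plus strand of chr12:104286782-104287031.
GCLM: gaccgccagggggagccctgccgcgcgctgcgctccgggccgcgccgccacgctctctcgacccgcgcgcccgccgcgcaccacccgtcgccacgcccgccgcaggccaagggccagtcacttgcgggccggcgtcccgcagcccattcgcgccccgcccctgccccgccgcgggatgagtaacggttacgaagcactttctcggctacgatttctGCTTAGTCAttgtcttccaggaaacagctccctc
ME1: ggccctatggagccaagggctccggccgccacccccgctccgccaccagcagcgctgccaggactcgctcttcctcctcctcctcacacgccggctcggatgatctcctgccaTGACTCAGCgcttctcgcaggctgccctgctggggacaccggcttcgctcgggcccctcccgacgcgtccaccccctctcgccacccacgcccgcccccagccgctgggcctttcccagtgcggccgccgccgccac
TXNRD1: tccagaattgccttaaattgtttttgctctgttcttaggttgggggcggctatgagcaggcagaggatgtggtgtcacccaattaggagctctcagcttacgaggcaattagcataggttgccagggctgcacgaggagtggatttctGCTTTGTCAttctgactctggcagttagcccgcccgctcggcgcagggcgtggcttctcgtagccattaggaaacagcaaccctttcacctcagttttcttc
The match began 34 bases before the start in GCLM and 102 before it in TXNRD1, both on the reverse strand of the gene. In ME1 it began 137 bases before the start and also held TGANTCA, as did the match in PIR. Another match of ME1 lay after the gene start and is not printed.

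The 3' minus 5' signal, an indirect sign of RNA quality, differed between the groups, most at 48 h against 0 h and also between the arms at 24 h. Why it differed was not tested. For the GAPDH and ACTB control probe sets, the signal at the 3' end minus that at the 5' end averaged 3.15 (log2) at 0 h, 4.21 in control and 2.87 in mir-429 cells at 24 h, 3.90 and 3.35 at 144 h, but 7.83 and 8.55 at 48 h. The arms did not overlap in it at 24 h (4 to 4.43 in control and 2.54 to 3.25 in mir-429 cells). Arrays of the same group differed with an SD of 0.17 to 0.25 at 0 h, 0.24 to 0.45 in the 24 h controls and 0.39 to 0.47 in the 48 h controls. In the 144 h controls the SD was 0.2 to 0.25. In mir-429 cells it was 0.21 to 0.27 at 24 h, 0.34 to 0.36 at 48 h and 0.27 to 0.33 at 144 h. The fit pools the spread over all groups, so standard errors may be too small in the groups with the wider spread, in either arm. Of 8 markers listed for the line, KRT8, KRT18, KRT7, PAX8, WT1 and VIM lay above the array median on all arrays, while KRT19 did so on 2 and MUC16 (CA125) on 0. Of 7 leukocyte markers with a probe set, ITGB2 was above the median on 17 arrays, CD14 and TYROBP on 1 each and PTPRC, CD3E, LYZ and HLA-DRA on 0, and the mean level of that list was 2.80 to 3.18 in the groups. Of 8 endothelial markers, CDH5 was above the median on all 21 arrays (mean 8.63), KDR on 19 and CLDN5 on 17, and the other 5 on 0 to 3. Levels are log2 per probe set and were not set against each other between genes, and in such bulk RNA fewer cells with a transcript and less transcript per cell cannot be told apart.

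The members rose broadly at 24 h after either transfection. Against untransfected cells, 27 of 33 were higher and 1 lower in control cells, with a median change of 0.68 on the log2 scale. Over all genes tested the median was 0.04, and 38% were called (limma with Benjamini-Hochberg adjustment, adjusted p under 0.05, as for every call here), 18.3% higher and 19.8% lower. In mir-429 cells 23 members were higher and 1 lower, with a median of 0.55, against 23% of all genes called, 11.7% higher and 11.3% lower. Of the 31 members above the array median on all arrays, 25 were higher in control and 21 in mir-429 cells. These comparisons share the 0 h arrays.

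At 48 h the picture was mixed. Control cells had 11 members higher and 9 lower than untransfected cells, with 54.5% of all genes called, 18.4% higher and 36.1% lower. In mir-429 cells 8 were higher and 12 lower, with 56.7% of all genes called, 19.1% higher and 37.5% lower. With the 3' minus 5' signal as a covariate, which nearly coincides with the 48 h groups, 1 and 0 members were called, with 76 and 72 of all 12879 genes. The 48 h changes against 0 h given below, other than that of AKR1C1 in control cells, were thus not called in that setting. At 144 h limma called 0 members in control cells, where 0.474% of all genes were called (0.28% higher and 0.194% lower), although GSR, TXN and UGDH had an unadjusted p under 0.05. With array weights 5 members and 3533 of all genes were called in that comparison, against 61 genes without them. The corresponding count in mir-429 cells was 7 (4 higher and 3 lower), with 18.9% of all genes called, 6.62% higher and 12.3% lower. When each array of the comparison was left out in turn, between 3 and 5 were called, with 1272 to 1822 of all genes. Of the 7 members, MAFF, SQSTM1, BLVRB and TXN were higher, by 0.27 to 0.52, and SLC48A1, GCLM and UGDH lower. Only MAFF, GCLM and UGDH stayed called without each array in turn.

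**Figure D1:**
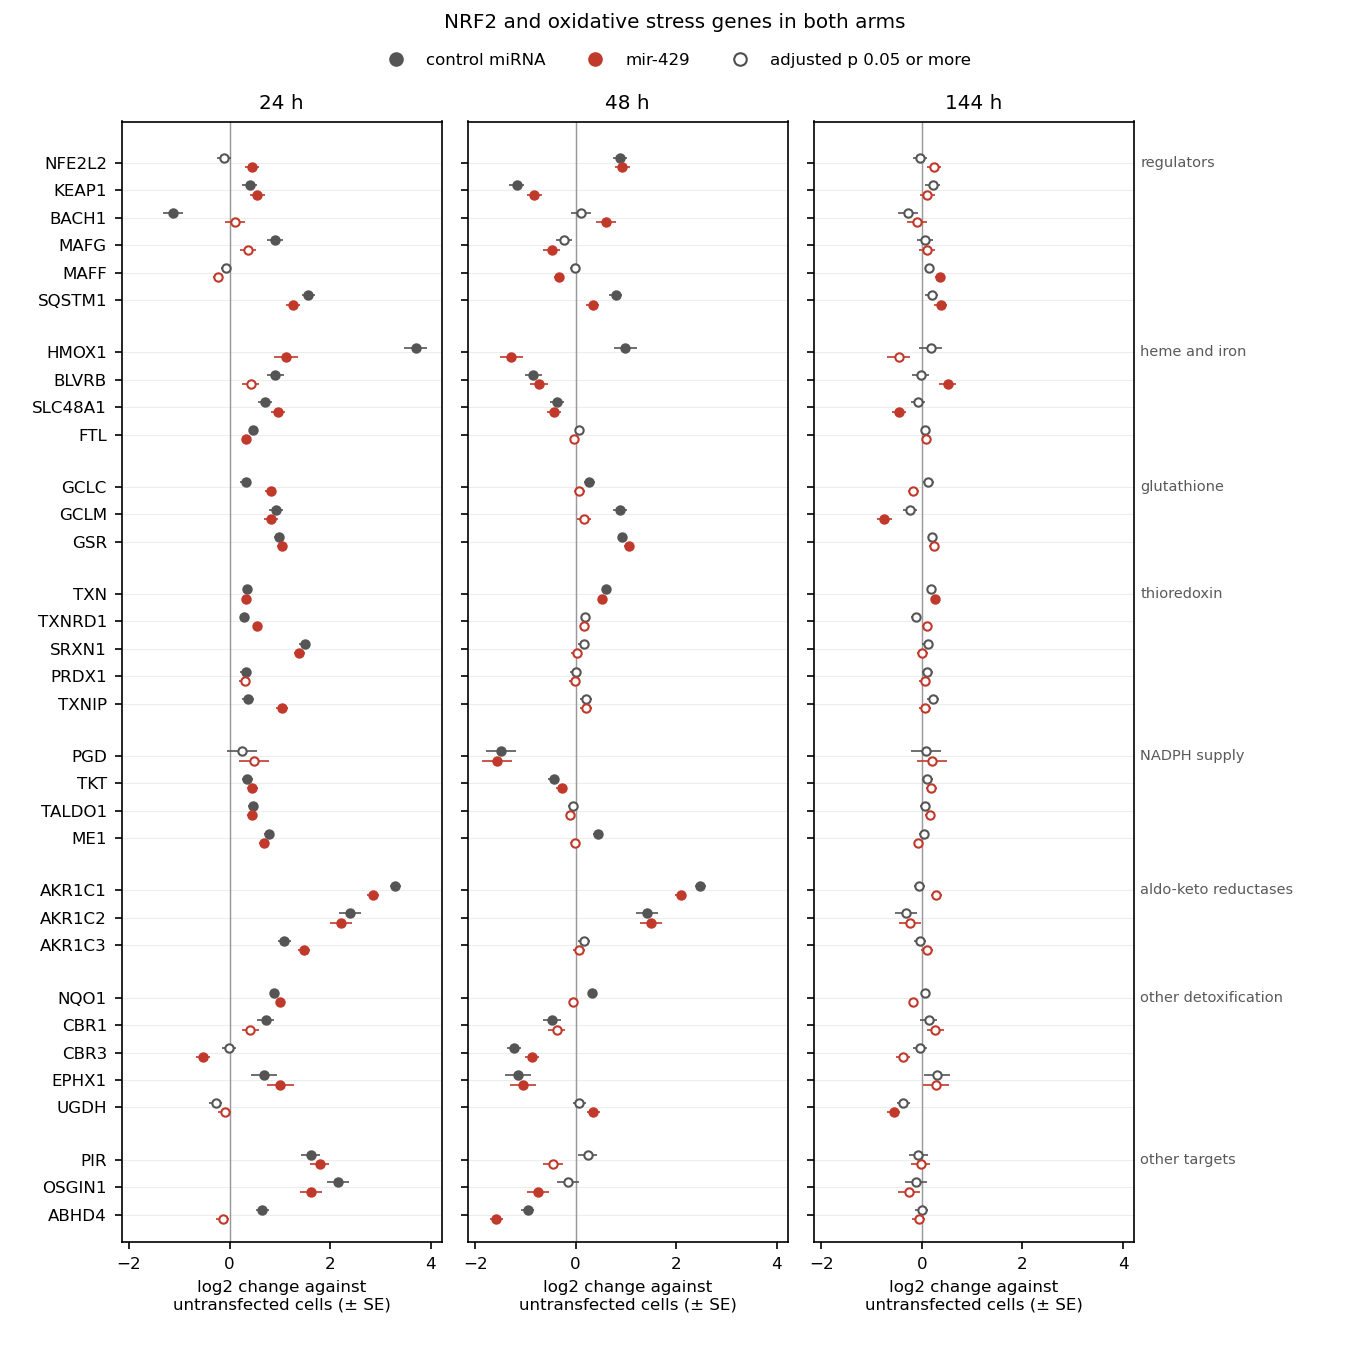
Log2 change against untransfected cells (x axis, ± SE, 3 arrays per group) of the 33 tested members, by role, in control (grey) and mir-429 cells (red) at 24, 48 and 144 h; filled points passed adjusted p under 0.05. Nearly all points lie right of 0 at 24 h, with HMOX1 at 3.70 in control and 1.12 in mir-429 cells, and points cluster near 0 at 144 h; EPHX1 at 48 h is drawn at its fitted value although its group means there lay below the array median.

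Between mir-429 and control cells at the same time, fewer members differed, and most shares lay near the background. At 24 h 5 members were higher and 6 lower in mir-429 cells (33.3%, against 26.6% of all genes, 15% higher and 11.6% lower). At 48 h 9 were lower and 0 higher (27.3%, against 20.6% of all genes, 11.3% lower and 9.32% higher), while at an unadjusted p under 0.05 there were 10 lower and 3 higher. At 144 h 1 was lower, against 5.85% of all genes, 1.48% higher and 4.37% lower. The members' median change was -0.02, -0.07 and 0.02 at the 3 times in turn, and that of all genes was -0.02, -0.01 and -0.04. The counts moved with the settings. The calls over all 12879 genes moved with them. With the 3' minus 5' covariate 3 members were called at 24 h (HMOX1, BACH1 and ABHD4), among 614 genes in place of 3425, and 9 at 48 h, among 2156 in place of 2649. Using only the 6 arrays compared, 2 members were called at 48 h (HMOX1 and GCLM), among 916 genes. Without control replicate 3 at 24 h, 7 were called there, among 2148 genes.

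**Figure D2:**
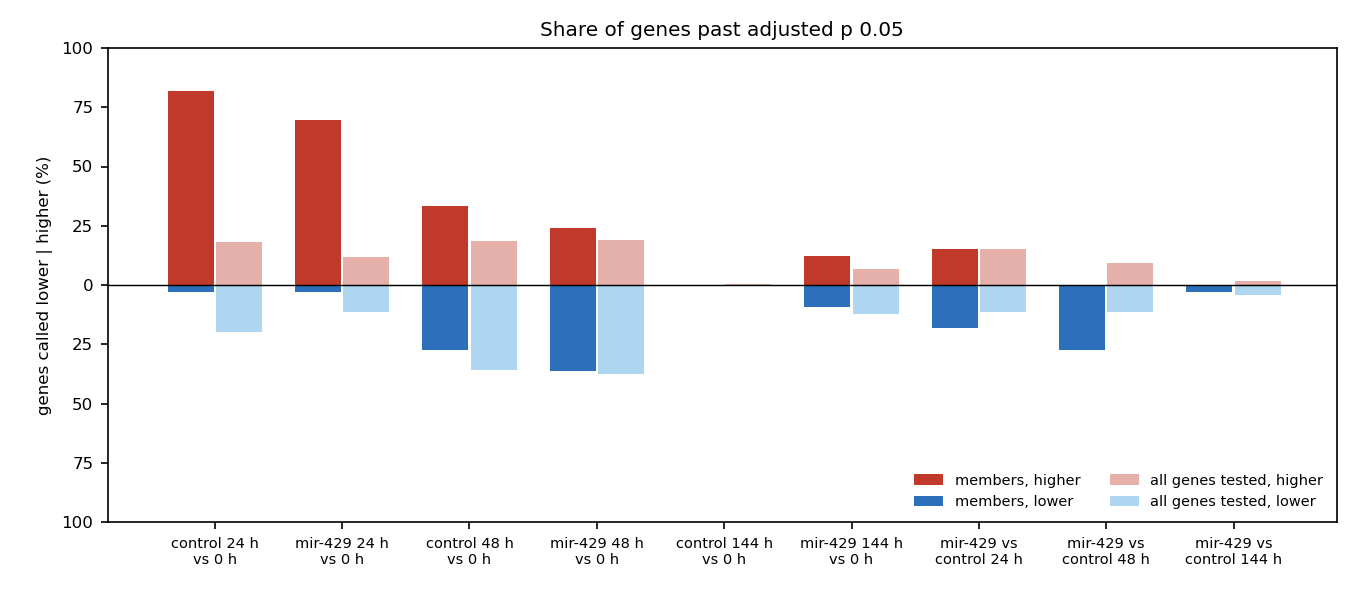
Share of genes called higher (upward bars, %) and lower (downward bars, %) at adjusted p under 0.05, for the 33 tested members (dark) and all 12879 genes tested (light), in the 6 comparisons with untransfected cells at 0 h and the 3 of mir-429 with control. The gap between dark and light upward bars is widest at 24 h against 0 h, with 27 and 23 of 33 members higher against 18.3% and 11.7% of all genes.

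Values on each array are given by replicate number, control before mir-429 where only a time is named. HMOX1, the oxygenase that breaks down heme to biliverdin, iron and carbon monoxide, had the largest differences between the arms at 24 and 48 h. Its signal was 6.42, 6.26 and 5.96 (log2) in untransfected cells. At 24 h it was 9.64, 9.89 and 10.19 in control cells and 7.22, 7.38 and 7.40 in mir-429 cells. All 24 h values thus lay above those at 0 h, and the arms did not overlap. Against 0 h HMOX1 rose by 3.70 ± 0.23 in control cells (13.0-fold, adjusted p = 1.31e-08, limma) and by 1.12 ± 0.23 in mir-429 cells (2.18-fold, adjusted p = 0.00187).

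At 48 h HMOX1 stood at 7.47, 6.53 and 7.59 in control cells and at 5.29, 4.86 and 4.63 in mir-429 cells. The control arrays were still above 0 h, a change of 0.99 ± 0.23, and every mir-429 array lay below the untransfected arrays, a change of -1.28 ± 0.23. At 144 h the values were 6.36, 6.46 and 6.35 in control and 5.42, 5.81 and 6.02 in mir-429 cells. Between the arms HMOX1 was 5.96-fold lower with mir-429 at 24 h (-2.58 ± 0.23, adjusted p = 5.61e-07) and 4.82-fold lower at 48 h (-2.27 ± 0.23, adjusted p = 1.59e-06). At 144 h the difference was -0.64 ± 0.23 and did not pass (adjusted p = 0.124), with no overlap of the arrays. The difference was smaller at 144 h than at 24 h by 1.93 ± 0.33 and than at 48 h by 1.63 ± 0.33 (adjusted p = 0.00088 and 0.00403). With the 3' minus 5' covariate HMOX1 remained lower at 24 h (-2.36 ± 0.35) and at 48 h (-2.38 ± 0.28). Of the 12879 genes tested, none fell further than HMOX1 between the arms at 24 h.

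The other heme and iron genes moved less. BLVRB, a biliverdin reductase, rose to between 9.43 and 9.67 in control cells at 24 h from 8.46 to 8.76 at 0 h (0.91 ± 0.17), and was lower with mir-429 by -0.49 ± 0.17 (adjusted p = 0.0358). That call was lost without control replicate 1 or 3 or mir-429 replicate 1 or 3 (highest adjusted p 0.156). SLC48A1, a heme transporter, rose in both arms at 24 h (0.71 and 0.97, ± 0.14) and did not pass between the arms at any time. FTL, the ferritin light chain that stores iron, rose by 0.46 and 0.32 (± 0.07).

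**Figure D3:**
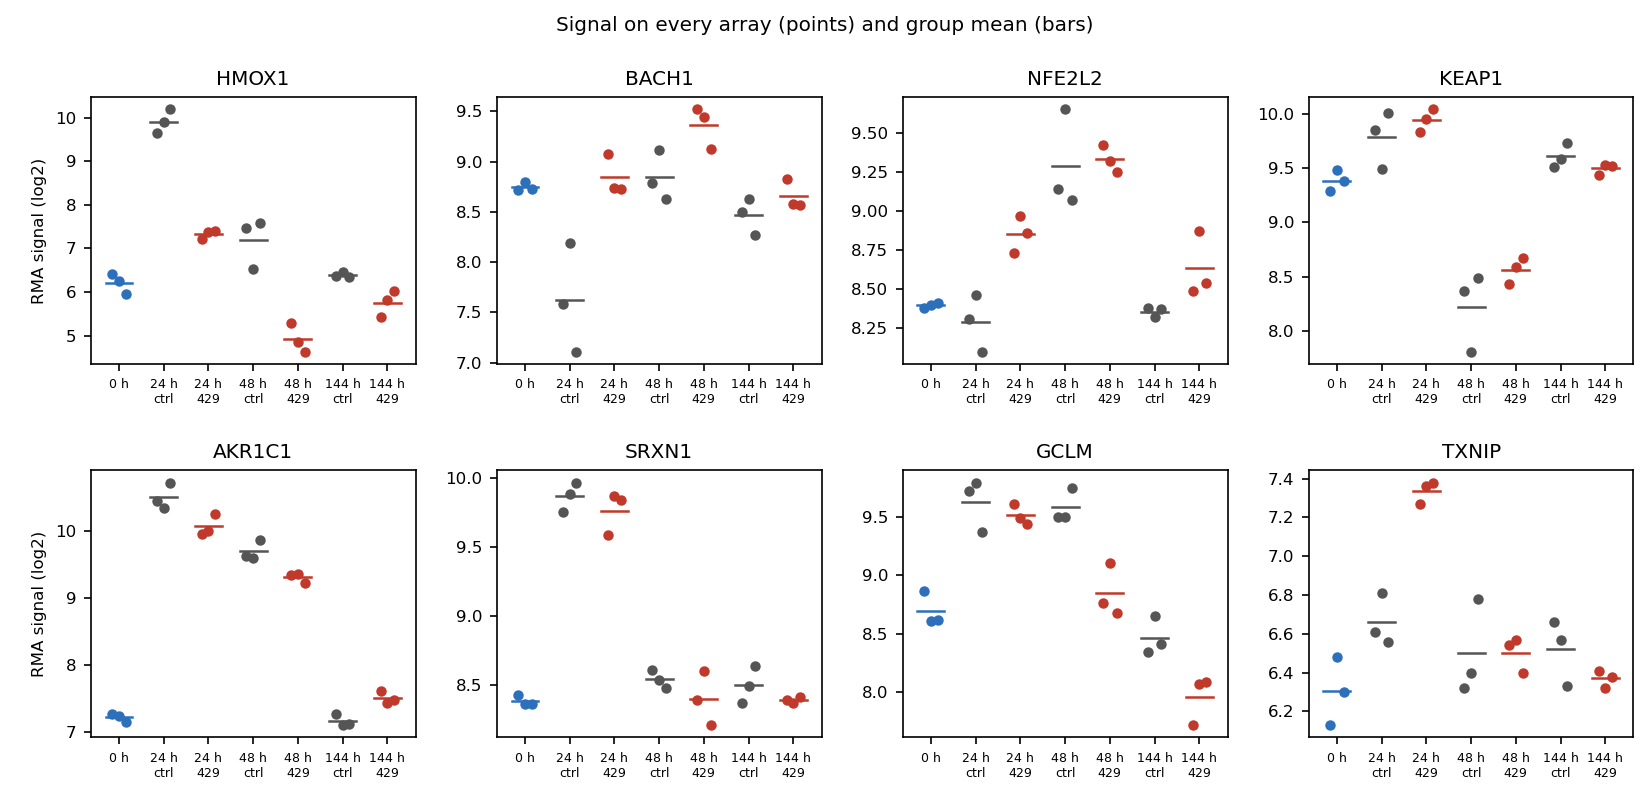
RMA signal (log2, y axis) of 8 members on every array (points, 3 per group) with the group mean (bars), in untransfected cells (blue), control cells (grey) and mir-429 cells (red) at the times given. HMOX1 peaks at 9.64 to 10.19 in control cells at 24 h and lies at 4.63 to 5.29 in mir-429 cells at 48 h, while AKR1C1 is near 7 at 0 h and 144 h in both arms and near 10 at 24 h; y axes differ between panels and do not start at 0.

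The regulators diverged in direction. BACH1, the repressor, stood at 8.72, 8.80 and 8.73 at 0 h. It was 7.58, 8.19 and 7.11 in control cells at 24 h and 9.08, 8.74 and 8.73 in mir-429 cells. Only the control group lay below the untransfected arrays, and the arms did not overlap. BACH1 fell in control cells (-1.12 ± 0.20, adjusted p = 0.000365), had a change of 0.10 ± 0.20 in mir-429 cells, and was higher with mir-429 than with control by 1.22 ± 0.20 (adjusted p = 0.00028). Its 48 h values were 8.79, 9.12 and 8.63 in control and 9.52, 9.44 and 9.13 in mir-429 cells (0.51 ± 0.20, adjusted p = 0.0848). At 144 h they were 8.50, 8.63 and 8.27 against 8.83, 8.58 and 8.57. The difference between the arms was smaller at 144 h than at 24 h (-1.03 ± 0.29, adjusted p = 0.0186). That call was lost without mir-429 replicate 1 or control replicate 3 at 24 h, or control replicate 2 at 144 h (highest adjusted p 0.0586). A dimmer BACH1 probe set, with a mean of 4.68, gave 0.24 ± 0.17 between the arms at 24 h and 0.06 ± 0.17 for control cells against 0 h, and neither passed.

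NFE2L2, which encodes NRF2 itself, was at 8.38, 8.40 and 8.41 in untransfected cells. At 24 h it was 8.31, 8.46 and 8.10 in control and 8.73, 8.97 and 8.86 in mir-429 cells, so only the mir-429 arrays all lay above 0 h. The difference between the arms was 0.56 ± 0.14 (adjusted p = 0.00569), and it was 0.51 ± 0.21 with the 3' minus 5' covariate (adjusted p = 0.201). At 48 h NFE2L2 rose in both arms, to 9.14, 9.65 and 9.07 in control and to 9.42, 9.32 and 9.25 in mir-429 cells (0.89 and 0.93, ± 0.14), and those groups overlapped. Neither change was called with the 3' minus 5' covariate, which nearly coincides with the 48 h groups. At 144 h NFE2L2 was 8.38, 8.32 and 8.37 against 8.49, 8.87 and 8.54. In control cells at 24 h, where 27 members rose, its change against 0 h was -0.11 ± 0.14 and did not pass.

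KEAP1, the NRF2 inhibitor, stood at 9.29, 9.48 and 9.38 at 0 h and at 9.85, 9.49 and 10.01 in control and 9.83, 9.95 and 10.04 in mir-429 cells at 24 h. It rose by 0.40 ± 0.15 and 0.55 ± 0.15. The control call was lost without control replicate 1 or 3 or any 0 h array (highest adjusted p 0.215) and the mir-429 call without mir-429 replicate 3 or 0 h replicate 1 (0.0581). At 48 h it was low in both arms, at 8.37, 7.81 and 8.49 and at 8.43, 8.59 and 8.67 (-1.17 and -0.82, ± 0.15), and at 144 h it was 9.51, 9.58 and 9.73 against 9.44, 9.53 and 9.52. Neither 48 h change was called with the 3' minus 5' covariate. KEAP1 did not pass between the arms at any time (0.16, 0.34 and -0.11, ± 0.15).

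MAFG and MAFF encode small MAF partners of NRF2. MAFG rose at 24 h in control cells (0.91 ± 0.16) and was lower with mir-429 at that time (-0.55 ± 0.16, adjusted p = 0.0177), a call lost without mir-429 replicate 1 or control replicate 3 (highest adjusted p 0.109). MAFF was lower with mir-429 at 48 h (-0.32 ± 0.09, adjusted p = 0.0128), a call lost without mir-429 replicate 1 (adjusted p = 0.0581). SQSTM1 encodes p62, an autophagy receptor that sequesters KEAP1. Its signal was 10.35, 10.37 and 10.26 at 0 h and 11.73, 11.79 and 12.15 in control and 11.31, 11.82 and 11.63 in mir-429 cells at 24 h. At 48 h it was 11.31, 11.02 and 11.04 against 10.62, 10.74 and 10.63, and at 144 h 10.47, 10.49 and 10.63 against 10.67, 10.71 and 10.74. It rose by 1.56 ± 0.13 and 1.26 ± 0.13 at 24 h and was lower with mir-429 at 48 h by -0.46 ± 0.13 (adjusted p = 0.0152), a call lost without control replicate 1 (0.0718). Its probe sets disagreed. A dimmer one (mean 6.15) gave -0.24 ± 0.17 and another (mean 4.88) -0.75 ± 0.25 for control cells at 24 h against 0 h, while the probe set with a mean of 7.62 gave 1.06 ± 0.18.

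The glutathione genes rose at 24 h, and their subunit pair differed between the arms. GCLC and GCLM encode the catalytic and modifier subunits of the enzyme that limits glutathione synthesis, and GSR the reductase that recycles it. All 3 rose at 24 h in both arms, GCLC by 0.32 and 0.82 (± 0.11), GCLM by 0.93 and 0.82 (± 0.14) and GSR by 0.98 and 1.04 (± 0.09). The GCLC call in control cells was lost without 0 h replicate 1 or 2 or control replicate 1 or 2 (highest adjusted p 0.13). GCLM was 8.86, 8.61 and 8.62 at 0 h, and 9.72, 9.79 and 9.37 in control and 9.61, 9.49 and 9.44 in mir-429 cells at 24 h.

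The arms of GCLM then separated. The 48 h arrays read 9.50, 9.50 and 9.74 in control cells, still near the 24 h level, and 8.76, 9.10 and 8.68 in mir-429 cells, near the 0 h level (-0.73 ± 0.14, adjusted p = 0.00116). At 144 h it was 8.34, 8.65 and 8.41 against 7.72, 8.07 and 8.09. The mir-429 arrays lay below both the control and the 0 h arrays there, with differences of -0.51 ± 0.14 (adjusted p = 0.0413) and -0.74 ± 0.14 (adjusted p = 0.00224). The first of these calls was lost when any single array of the comparison other than mir-429 replicate 3 was left out (highest adjusted p 0.204). It was also lost with cyclic loess (adjusted p = 0.0651), quantile normalization (0.0639), no filter on dim probe sets (0.0781), only the arrays compared (0.0631) and the 3' minus 5' covariate (0.075), at -0.45 to -0.52. GCLM was the only member called between the arms at 144 h. With limma's array weights 10 members were called there, among 2249 of all 12879 genes. GCLC was higher with mir-429 at 24 h (0.50 ± 0.11, adjusted p = 0.00309), with a difference of -0.20 ± 0.11 at 48 h. The change between those times was -0.70 ± 0.16 (adjusted p = 0.021), a call lost without mir-429 replicate 1 or control replicate 3 at 24 h or mir-429 replicate 3 at 48 h (highest adjusted p 0.0642). GPX2, a glutathione peroxidase, was above the array median on 0 arrays and was not tested.

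In the thioredoxin system SRXN1, the sulfiredoxin that repairs peroxiredoxins, changed most at 24 h against 0 h. It was 8.43, 8.36 and 8.36 at 0 h and rose to 9.76, 9.89 and 9.97 in control and 9.59, 9.87 and 9.84 in mir-429 cells at 24 h (1.49 and 1.38, ± 0.11). At 48 h it had returned to 8.61, 8.54 and 8.48 against 8.39, 8.60 and 8.21, and at 144 h it was 8.37, 8.49 and 8.64 against 8.39, 8.37 and 8.41. The arms differed by -0.11, -0.14 and -0.11 (± 0.11), none of which passed. TXN, thioredoxin itself, rose by 0.34 and 0.33 (± 0.08) at 24 h and by 0.60 and 0.53 at 48 h.

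TXNRD1, the reductase of thioredoxin, was at 12.06, 12.27 and 12.28 at 0 h and rose at 24 h to 12.51, 12.55 and 12.42 in control and 12.77, 12.74 and 12.74 in mir-429 cells (0.29 and 0.55, ± 0.09). The control call was lost without 0 h replicate 1, control replicate 1 or control replicate 2 (highest adjusted p 0.108). The arms did not overlap at 24 h, and their difference of 0.26 ± 0.09 did not pass (adjusted p = 0.0504). TXNRD1 was 12.25, 12.59 and 12.35 against 12.48, 12.33 and 12.30 at 48 h, and 12.05, 12.10 and 12.09 against 12.33, 12.33 and 12.25 at 144 h. PRDX1, a peroxiredoxin that reduces hydrogen peroxide, rose in control cells at 24 h by 0.32 ± 0.11, a call lost without control replicate 1 or 3 or 0 h replicate 1 or 2 (highest adjusted p 0.0974), with a change of 0.30 ± 0.11 in mir-429 cells (adjusted p = 0.0539).

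TXNIP binds and inhibits thioredoxin. It was 6.13, 6.48 and 6.30 at 0 h, 6.61, 6.81 and 6.56 in control and 7.27, 7.36 and 7.38 in mir-429 cells at 24 h. The mir-429 arrays at 24 h stood above every other array of the series. The difference between the arms was 0.68 ± 0.12 (adjusted p = 0.000672) and was 0.38 ± 0.16 with the 3' minus 5' covariate (adjusted p = 0.217). TXNIP was 6.32, 6.40 and 6.78 against 6.54, 6.57 and 6.40 at 48 h and 6.66, 6.57 and 6.33 against 6.41, 6.32 and 6.38 at 144 h, and the arms overlapped at both times. The difference was smaller at 144 h than at 24 h (-0.83 ± 0.18, adjusted p = 0.00415).

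Of the NADPH-supplying enzymes, ME1 (malic enzyme) and the pentose phosphate enzymes TKT and TALDO1 rose at 24 h in both arms. ME1 rose by 0.78 and 0.68 (± 0.09), TKT by 0.35 and 0.45 (± 0.11) and TALDO1 by 0.46 and 0.44 (± 0.09). ME1 was lower with mir-429 at 48 h (-0.46 ± 0.09, adjusted p = 0.000834). Another ME1 probe set (mean 8.75) gave 0.24 ± 0.13 and -0.13 ± 0.13 against 0 h at 24 h, and neither passed. PGD, a dehydrogenase of the pentose phosphate path, was 7.74, 7.79 and 7.83 at 0 h, 7.96, 8.22 and 7.91 in control and 8.27, 8.31 and 8.25 in mir-429 cells at 24 h. At 48 h its arrays scattered low, at 5.31, 6.65 and 6.96 and at 6.54, 6.50 and 5.63, and at 144 h they were 8.09, 7.71 and 7.80 against 8.02, 7.90 and 8.07. The 48 h change against 0 h was -1.48 and -1.56 (± 0.30), and with the 3' minus 5' covariate its sign turned (1.56 and 1.94).

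The aldo-keto reductases AKR1C1, AKR1C2 and AKR1C3 metabolise steroids and reactive carbonyls. They are close paralogs whose probe sets can cross-hybridise, so the split between them is uncertain. AKR1C1 was 7.27, 7.25 and 7.16 at 0 h. It was 10.46, 10.35 and 10.73 in control and 9.96, 10.01 and 10.26 in mir-429 cells at 24 h, 9.64, 9.60 and 9.87 against 9.35, 9.36 and 9.23 at 48 h, and 7.28, 7.11 and 7.13 against 7.62, 7.44 and 7.49 at 144 h. The arms did not overlap at any time. AKR1C1 rose by 3.29 ± 0.11 and 2.85 ± 0.11 at 24 h and by 2.48 and 2.09 at 48 h. With the 3' minus 5' covariate AKR1C1 alone among the members was called in the 48 h controls (2.53 ± 0.45, adjusted p = 0.032).

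Between the arms AKR1C1 was lower with mir-429 at 24 h (-0.44 ± 0.11, adjusted p = 0.00737) and at 48 h (-0.39 ± 0.11, adjusted p = 0.019), with a difference of 0.34 ± 0.11 at 144 h that did not pass. The 24 h call was lost without control replicate 3 (adjusted p = 0.0545) and the 48 h call without control replicate 3 or mir-429 replicate 3 (highest 0.0827). A dimmer AKR1C1 probe set (mean 4.41) gave 0.29 ± 0.24 between the arms at 24 h, and a bright one (mean 8.76) gave -0.19 ± 0.21. That bright one rose by 2.47 and 2.28 (± 0.21) against 0 h at 24 h.

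AKR1C2 was 7.96, 7.19 and 7.55 at 0 h, 9.88, 10.02 and 10.01 in control and 9.69, 9.71 and 9.96 in mir-429 cells at 24 h (2.40 and 2.22, ± 0.22). Its 48 h values were 8.65, 9.13 and 9.18 against 9.16, 8.94 and 9.11, and at 144 h 7.15, 6.89 and 7.73 against 7.15, 7.77 and 7.07. It did not pass between the arms at any time. AKR1C3 was 8.85, 8.83 and 8.69 at 0 h, 9.79, 9.84 and 10.01 in control and 10.05, 10.35 and 10.38 in mir-429 cells at 24 h. The 48 h arrays read 8.90, 8.79 and 9.17 against 8.79, 8.89 and 8.88, and at 144 h 8.87, 8.57 and 8.81 against 8.97, 8.87 and 8.83. It rose by 1.09 and 1.47 (± 0.12) at 24 h. It was higher with mir-429 then (0.38 ± 0.12, adjusted p = 0.0214), a call lost without mir-429 replicate 2 or 3 or control replicate 1 (highest adjusted p 0.0918). AKR1B10 was above the array median on 1 array and was not tested.

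Among the other detoxification enzymes NQO1, the quinone reductase that is a standard readout of NRF2, was 11.76, 11.85 and 11.74 at 0 h. It rose to 12.73, 12.65 and 12.64 in control and 12.77, 12.80 and 12.79 in mir-429 cells at 24 h (0.89 and 1.00, ± 0.08). Its 48 h values were 11.95, 12.22 and 12.16 in control cells and, near the 0 h level, 11.66, 11.82 and 11.71 in mir-429 cells (-0.38 ± 0.08 between the arms, adjusted p = 0.00323). At 144 h it was 11.85, 11.83 and 11.88 against 11.65, 11.52 and 11.64 (-0.25 ± 0.08, adjusted p = 0.0868). The other NQO1 probe sets rose by 1.36 and 1.47 (± 0.13) and by 1.08 and 1.13 (± 0.12) at 24 h. For mir-429 cells at 48 h against 0 h the brightest probe set gave -0.05 ± 0.08 and was not called. With the mean of the 3 probe sets that change was called higher, so the return to the 0 h level depended on the probe set.

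CBR3, a carbonyl reductase, went against the group at 24 h. It was 8.16, 8.06 and 7.97 at 0 h, 8.10, 7.72 and 8.34 in control and 7.60, 7.46 and 7.52 in mir-429 cells at 24 h. It was the only member called lower than 0 h in mir-429 cells then (-0.53 ± 0.14), while MAFF, at -0.24 ± 0.09, did not pass (adjusted p = 0.0527). CBR3 was also lower than in control cells by -0.53 ± 0.14 (adjusted p = 0.0105), a call lost without control replicate 3 (0.077). The 48 h arrays read 6.79, 6.69 and 7.02 against 7.39, 6.99 and 7.23, below 0 h in both arms (-1.23 and -0.86, ± 0.14), and at 144 h 8.08, 8.16 and 7.84 against 7.62, 7.65 and 7.79. CBR1 rose at 24 h in control cells (0.72 ± 0.17), with a change of 0.41 ± 0.17 in mir-429 cells (adjusted p = 0.0879).

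EPHX1, an epoxide hydrolase, lay above the array median on 17 arrays. It was 5.27, 5.11 and 4.99 at 0 h, 5.86, 6.09 and 5.48 in control and 5.99, 6.42 and 5.99 in mir-429 cells at 24 h. The control call at 24 h (0.68 ± 0.26) was lost without control replicate 1 or 2 or any 0 h array (highest adjusted p 0.15) and the mir-429 call (1.01 ± 0.26) without mir-429 replicate 2 (0.0503). At 48 h its values of 4.48, 3.54 and 3.90 and of 3.53, 4.13 and 4.61 averaged below the array median, with only control replicate 1 and mir-429 replicate 3 above it. The change against 0 h is therefore a bound, -0.84 or lower in control and -0.82 or lower in mir-429 cells, with the dim values raised to the array median. No fold between the arms is given there. At 144 h it was 5.71, 5.34 and 5.26 against 5.09, 5.77 and 5.36. UGDH, which makes the UDP-glucuronic acid used in conjugation, was not called at 24 h (-0.28 and -0.10, ± 0.13) and fell in mir-429 cells at 144 h (-0.56 ± 0.13).

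PIR, OSGIN1 and ABHD4 are further genes of the program. PIR, an iron-binding nuclear protein, was 5.75, 5.87 and 5.63 at 0 h, 7.44, 7.28 and 7.36 in control and 7.38, 7.40 and 7.85 in mir-429 cells at 24 h (1.61 and 1.79, ± 0.19). Its 48 h values were 6.04, 5.75 and 6.19 against 5.08, 4.93 and 5.91, and at 144 h 5.73, 5.56 and 5.74 against 5.66, 5.78 and 5.75. PIR was lower with mir-429 at 48 h (-0.69 ± 0.19, adjusted p = 0.016), where the arms overlapped, and the call was lost without mir-429 replicate 1 or 2 or control replicate 3 (highest adjusted p 0.0934).

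OSGIN1, an oxidative stress induced growth inhibitor, was 5.48, 5.09 and 5.14 at 0 h, 7.24, 7.33 and 7.60 in control and 6.63, 7.13 and 6.81 in mir-429 cells at 24 h (2.16 and 1.62, ± 0.22). The 48 h arrays read 5.30, 4.66 and 5.26 against 3.95, 4.55 and 4.98, and at 144 h 4.92, 5.22 and 5.22 against 4.85, 5.12 and 4.99. The arms differed by -0.53 ± 0.22 at 24 h and -0.58 ± 0.22 at 48 h, and neither passed (adjusted p = 0.0798 and 0.0687).

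ABHD4, a lipase of N-acyl phospholipids, was 6.19, 5.95 and 6.03 at 0 h, 6.55, 6.87 and 6.70 in control and 5.87, 5.99 and 5.87 in mir-429 cells at 24 h. It rose in control cells (0.65 ± 0.13), had a change of -0.14 ± 0.13 in mir-429 cells, and was lower with mir-429 by -0.80 ± 0.13 (adjusted p = 0.000182). Its 48 h values were 5.15, 4.77 and 5.39 against 4.56, 4.44 and 4.41 (-0.63 ± 0.13, adjusted p = 0.0014), and at 144 h 6.08, 6.08 and 6.01 against 6.08, 5.95 and 5.95. With the 3' minus 5' covariate the difference at 24 h was -0.80 ± 0.19 (adjusted p = 0.0217).

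**Figure D4:**
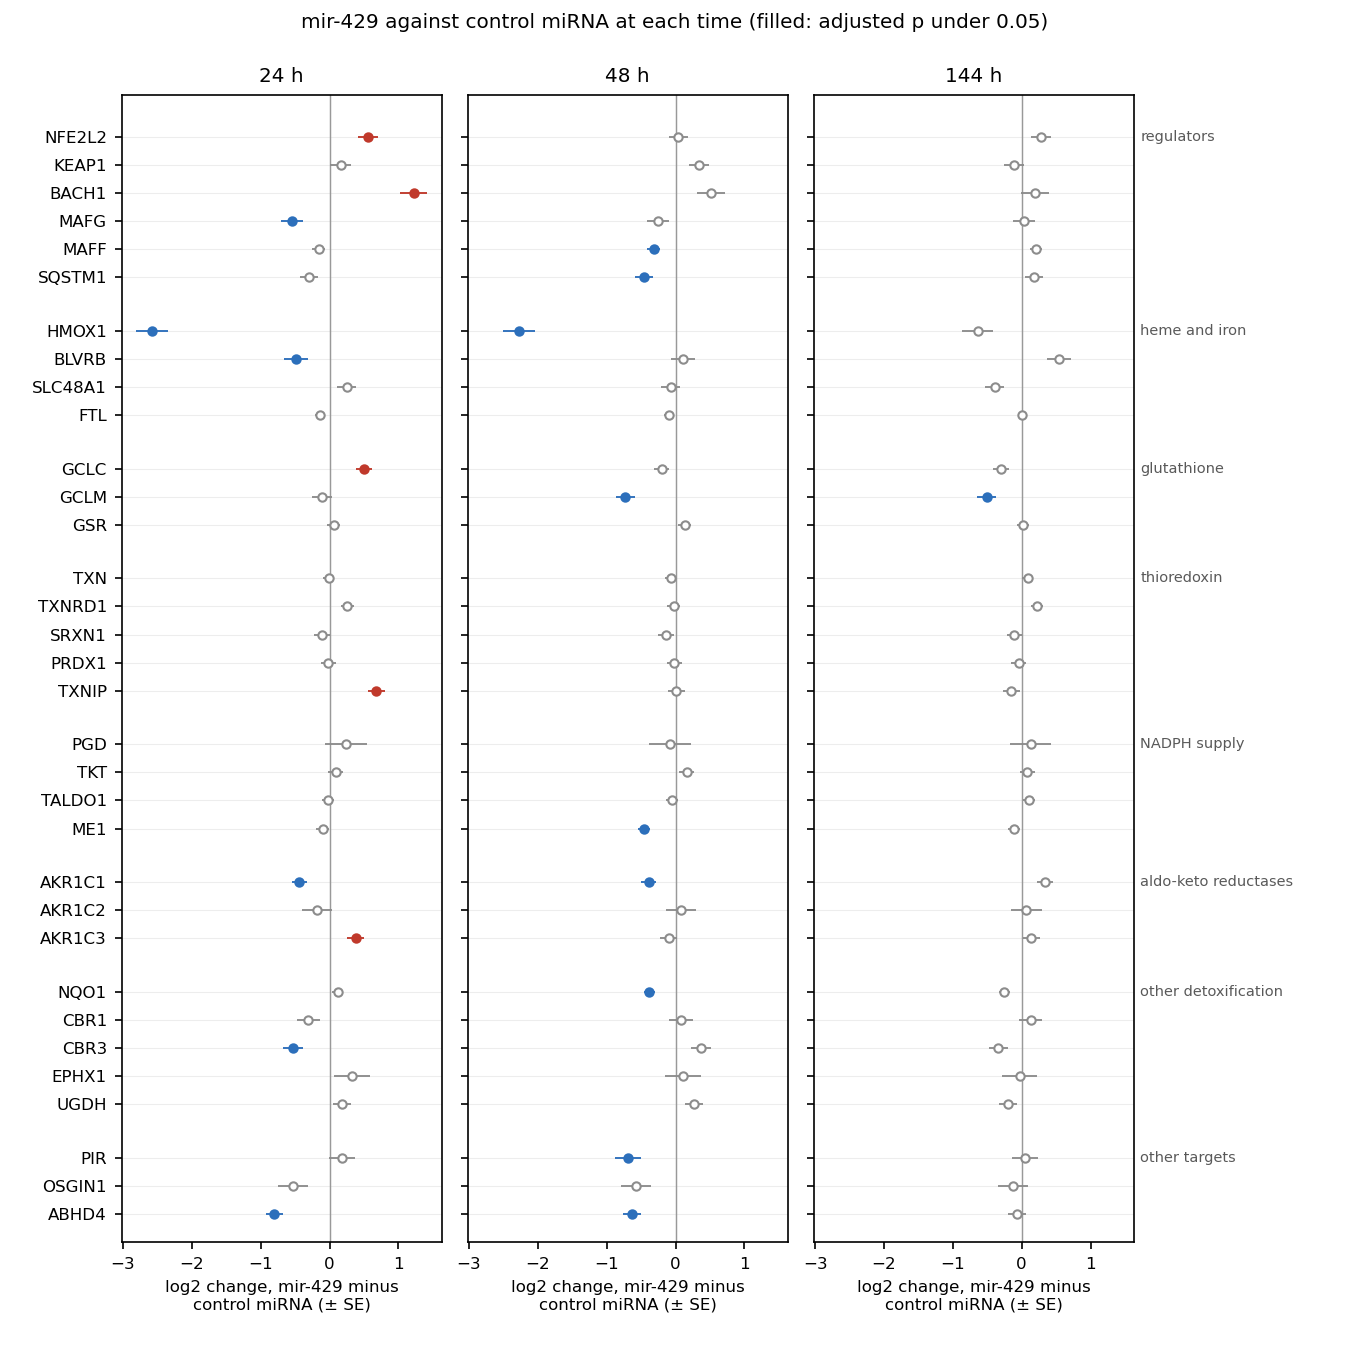
Log2 difference of mir-429 minus control cells (x axis, ± SE, 3 arrays per group) for the 33 tested members, by role, at 24, 48 and 144 h; red filled points were called higher, blue filled points lower, and open points did not pass adjusted p under 0.05. HMOX1 lies at -2.58 and -2.27 at 24 and 48 h, far left of the rest, BACH1 at 1.22 is the rightmost point at 24 h, and only GCLM is filled at 144 h.

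HMOX1 and AKR1C1 were the members lower with mir-429 at both 24 and 48 h, together with ABHD4. BACH1, TXNIP, NFE2L2, GCLC and AKR1C3 were called higher at 24 h and were not called at 48 h. The test of the change in the mir-429 minus control difference between 24 and 48 h called CBR3 higher and GCLC, TXNIP and NQO1 lower. These were 4 members in all, against 4.89% of all genes (1.75% higher and 3.14% lower). Without control replicate 3 at 24 h it called 0 members, with 166 of all 12879 genes in place of 630. From 48 to 144 h the mir-429 minus control difference rose in 4 members and fell in 1, against 9.47% of all genes (3.84% and 5.62%). From 24 to 144 h it rose in 5 and fell in 5, against 18.6% (6.32% and 12.3%). A rise of the difference is not a rise of the signal. The mean of HMOX1 fell in both arms from 24 to 144 h, from 9.91 to 6.39 in control and from 7.33 to 5.75 in mir-429 cells.

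Other genes of the same pathways were counted from a list of 104, of which 87 were tested. At 24 h 27 were higher and 13 lower in control cells than at 0 h (46% called, against 38% of all genes, 18.3% higher and 19.8% lower). In mir-429 cells 24 were higher and 5 lower (33.3%, against 23% of all genes, 11.7% higher and 11.3% lower). None was called in control cells at 144 h, where only 0.474% of all genes were called. Between the arms 25 were called at 24 h (17 higher and 8 lower, 28.7%), 16 at 48 h (8 and 8) and 5 at 144 h (2 and 3), near the shares of all genes. FECH, the ferrochelatase that completes heme, was higher with mir-429 at 24 h by 2.13 ± 0.28, with a change of -1.69 ± 0.28 in control cells against 0 h. SOD2, the mitochondrial superoxide dismutase, was higher at 24 h (0.60 ± 0.08) and 48 h (0.35 ± 0.08), and NFE2L3, an NRF2 relative, by 0.67 and 0.45 (± 0.11).

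SESN1, a sestrin, was lower with mir-429 at 24 h (-1.03 ± 0.11) and 48 h (-0.78 ± 0.11). PRDX2, a peroxiredoxin, and BLVRA, the other biliverdin reductase, were lower at 24 h (-0.77 ± 0.11 and -0.50 ± 0.10). At 48 h the heme exporter FLVCR1 was higher (0.47 ± 0.11), and OXR1 (-0.72 ± 0.12) and the drug exporter ABCG2 (-1.09 ± 0.15) were lower. At 144 h the cystine transporter SLC7A11 (0.66 ± 0.14) and the glutathione-degrading CHAC1 (0.92 ± 0.23) were higher, and TRIM16 (-0.88 ± 0.22), CREBBP (-0.46 ± 0.12) and ABCG2 (-0.56 ± 0.15) lower. TRIM16 and SLC7A11, chosen after their values were seen, rose at 24 h in both arms. The rise was 2.41 and 2.64 (± 0.22) for TRIM16 and 0.98 and 1.60 (± 0.14) for SLC7A11. TRIM16 had the highest change of the 87 genes in control and in mir-429 cells at 24 h, where the lowest changes were -1.70 and -1.64.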

How the data were processed

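HEY cells were profiled on 21 Affymetrix 3' expression arrays, 3 in each of 7 groups taken from the labels. Per the labels, column-purified RNA was made into cDNA and amplified by a 3'-end method before biotin labelling, so degraded RNA raises the 3' minus 5' signal. The deposited values are log2 RMA values per probe set, per the submitters' processing notes, whose software is not given in the sources used here. The range was 0.75 to 14.97 and array medians were 3.95 to 4.29, and no rescaling was done. The number of arrays limits the precision.

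The platform annotation gave a single symbol to 41097 of 54675 probe sets, several to 1801 and none to 11777, and symbols were updated through Entrez identifiers against RefSeq GRCh38.p14 (99.9% matched). The brightest single-symbol probe set over all arrays stood for each of 19775 genes. Genes above the array median on at least 3 arrays were tested (12879). Of the members, AKR1B10 (above it on 1 array) and GPX2 (0) fell outside, and EPHX1 (17) and OSGIN1 (20) were the nearest inside.

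A model with a mean per group was fitted with limma 3.58.1 in R 4.3.3 (14 residual degrees of freedom, prior 3.93). Tests were two-sided, with Benjamini-Hochberg adjustment over all genes tested and a threshold of 0.05, for 9 comparisons of groups and 3 of effects between times. Values are log2 changes ± SE with n = 3 per group; the SE of a gene is the same in all comparisons of groups. The replicate numbers were not used to pair the samples, and nothing in the labels ties the numbers to a batch. Deviations of same-numbered arrays from their group means had a median correlation of -0.02 over 63 pairs, 17 of which were over 0.1. For arrays with different numbers the median was 0 over 126 pairs, 29 of which were over 0.1. With 3 arrays per group these values cannot exclude a pairing. The script was tested on simulated data for the 24 h comparison of the arms over 12879 genes and recovered 32.8% of genes changed by 0.5, 77.6% of those changed by 1 and 98.5% of those changed by 2 (log2). Of its 143 calls, 4 were false. It changed only 67, 67 and 66 genes by these sizes, with the same spread of a gene in every group. The rates need not hold for the arrays, where 3425 genes were called and the spread differed between groups. Alternatives changed the scaling, filter, probe sets, arrays, replicate block, array weights and the 3' minus 5' covariate. Values on every array are given for members called with a change of at least 1 in any comparison of groups, the 14 largest, and for NFE2L2, NQO1, GCLM, TXNRD1 and TXNIP; of other pathway genes, up to 3 per direction with the smallest p in each comparison of the arms. The members and lists were chosen with earlier results of these data known.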

Additional observations from a re-analysis of the deposited data

Results flagged for a closer look

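Several members had a difference between mir-429 and control cells that changed with time by a direct test (limma, Benjamini-Hochberg over all genes). Each value is the later minus the earlier difference on the log2 scale.

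Between 24 and 48 h CBR3 changed by 0.90 ± 0.20 (adjusted p = 0.0202), from -0.53 to 0.37. GCLC changed by -0.70 ± 0.16 (0.021), TXNIP by -0.67 ± 0.18 (0.0362) and NQO1 by -0.50 ± 0.12 (0.0249). TXNIP and GCLC were higher with mir-429 at 24 h, whereas NQO1 was lower at 48 h. All 4 of these calls were lost without control replicate 3 at 24 h, where 166 of all genes were called in place of 630. The values were then 0.75 for CBR3 (adjusted p = 0.0614, limma), -0.48 for NQO1 (0.0632) and -0.62 for TXNIP (0.102).

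Between 48 and 144 h HMOX1 changed by 1.63 ± 0.33 (adjusted p = 0.00403), AKR1C1 by 0.73 ± 0.16 (0.00599), SQSTM1 by 0.64 ± 0.18 (0.0314), MAFF by 0.53 ± 0.12 (0.00863) and CBR3 by -0.71 ± 0.20 (0.0325). SQSTM1 and CBR3 lost their call when most single arrays of the comparison were left out, 8 of them in each gene (highest adjusted p 0.0768 and 0.09).

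Between 24 and 144 h HMOX1 changed by 1.93 ± 0.33 (adjusted p = 0.00088), BLVRB by 1.03 ± 0.23 (0.00655), AKR1C1 by 0.78 ± 0.16 (0.00291), ABHD4 by 0.73 ± 0.18 (0.00915) and MAFF by 0.37 ± 0.12 (0.0396). Changes in the other direction were -1.03 ± 0.29 for BACH1 (0.0186), -0.83 ± 0.18 for TXNIP (0.00415), -0.80 ± 0.16 for GCLC (0.00265), -0.64 ± 0.20 for SLC48A1 (0.0335) and -0.37 ± 0.12 for NQO1 (0.0358). The difference of BLVRB went from -0.49 at 24 h to 0.54 at 144 h and that of AKR1C1 from -0.44 to 0.34. Neither 144 h difference was called by limma (adjusted p = 0.0646 and 0.0806). The calls of MAFF, SLC48A1 and NQO1 were lost without 8, 7 and 9 of the arrays in turn (highest adjusted p 0.1, 0.085 and 0.0883).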

How the results depend on the processing

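Of 139 called values of members, 96 kept their call when each array was left out in turn. With cyclic loess 130 of 139 kept direction and call, with quantile normalization 132, with no filter 115, with the mean of a gene's probe sets 114 and with array weights 133. With the 3' minus 5' covariate 76 did. The counts of called members ran from 7 to 12 (reported 11) for mir-429 minus control at 24 h when arrays were left out, from 8 to 12 (9) at 48 h and from 0 to 1 (1) at 144 h. For control cells against 0 h they ran from 22 to 26 (28), 17 to 21 (20) and 0 to 0 (0) at 24, 48 and 144 h, and for mir-429 cells from 22 to 24 (24), 16 to 19 (20) and 3 to 5 (7). For the changes of the difference they ran from 0 to 6 (4) between 24 and 48 h, 3 to 6 (5) between 48 and 144 h and 6 to 10 (10) between 24 and 144 h. The calls over all 12879 genes moved too. Between the arms at 24 h, 2148 genes were called in the setting with 7 members and 4033 in that with 12. For the change between 24 and 48 h, 166 were called with 0 members and 1973 with 6. The 2 counts did not always move together. Control cells at 24 h against 0 h had 4554 genes in the setting with 22 members and 3483 in that with 26.

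Other settings moved counts of members by over 1.5 times, and the cause was not tested. For mir-429 minus control at 144 h, 1 lower member (GCLM) was reported among 754 genes. Cyclic loess and quantile normalization each gave 2 there, among 729 and 694 genes. Both members were higher (BLVRB and AKR1C1), without GCLM. In that comparison the covariate gave 1, BLVRB, higher (585 genes), and no filter gave 0 (515 of 19775 genes). The fit of only the arrays compared gave 2 (1 higher, 1 lower, GCLM not among them, with 1017 genes). No 48 h arrays gave 4 (1 higher, 3 lower, 1160 genes) and array weights 10 (4 higher, 6 lower, 2249 genes). At 24 h the mean of probe sets gave 7 (2316 of 11804 genes) and the covariate 3 (614), against 3425 genes in the main fit. At 48 h the fit of only the arrays compared gave 2 (916 genes, against 2649). Against 0 h, probe sets without a suffix, which 26 members have, gave 17 in control cells at 24 h (3768 of 10009 genes, against 4897). The covariate gave 1 in control and 0 in mir-429 cells at 48 h (76 and 72 genes, against 7022 and 7296). At 144 h array weights gave 5 in control and 13 in mir-429 cells (3533 and 5055 genes, against 61 and 2434). No filter gave 3 in mir-429 cells then (1778 of 19775 genes). For the changes of the difference between 24 and 48 h, the main fit called 630 genes. No filter gave 2 members (263 of 19775 genes) and the mean of probe sets 2 (316 of 11804). The fit of only the arrays compared and the covariate gave 0 there, with 58 and 2 genes called. Between 48 and 144 h no filter gave 3 (920 of 19775 genes, against 1219). Between 24 and 144 h the mean of probe sets gave 6 (1606 of 11804 genes) and the covariate 6 (1272), against 2396 genes.

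Signs turned for some values of members, and the cause was not tested. With the mean of probe sets FTL in control cells at 48 h against 0 h was -0.46, and in mir-429 cells at 48 h BACH1 was -0.01, SQSTM1 -0.37 and NQO1 0.25. With probe sets without a suffix AKR1C1 was 0.29 and 0.20 between the arms at 24 and 48 h, with changes of the difference of -0.19 (48 to 144 h) and -0.28 (24 to 144 h), TKT was -0.49 between the arms at 24 h and 0.40 in mir-429 cells at 48 h, SQSTM1 was -0.24 in control and -0.47 in mir-429 cells at 24 h, and ME1 was -0.13 in mir-429 cells at 24 h. With the covariate SQSTM1 at 48 h against 0 h was -0.06 in control and -0.65 in mir-429 cells, and PGD was 1.56 and 1.94. With the replicate number as a block, 137 of 139 called values stayed called, the 24 h comparison of the arms called 11 members and the 48 h one 10; EPHX1 in control cells at 24 h (adjusted p = 0.0607) and SQSTM1 in mir-429 cells at 144 h (0.0516) were no longer called.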
